A study of Mus musculus with 2 samples.

Results

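The tumour necrosis factor (TNF) superfamily was examined in RNA from mouse testis, as the ligand and receptor genes that the deposited table lists under Tnfsf or Tnfrsf symbols or under the older names Tnf, Lta, Ltb, Ltbr, Cd40, Cd40lg, Cd27, Cd70, Fas, Fasl, Ngfr, Eda, Edar, Eda2r and Relt. The choice went by name alone and found 45 of the 18722 loci, 17 ligand genes and 28 receptor genes. The Dmrt1 knockdown library (shDmrt1) came from testis of male C57BL/6J mice in which a hairpin RNA targeted Dmrt1, a DNA-binding regulator of male fate in the testis. The control library (shControl), from the same strain, sex and tissue, is labelled wild type. Both were made at 16 weeks of age, with 1 library per group. The labels state neither how the hairpins were delivered, nor which cells took them up, nor how many animals each library holds.

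TNF superfamily ligands are mostly trimeric membrane proteins, some of them shed as soluble cytokines, and each binds one or a few receptors with cysteine-rich repeats outside the cell. Receptors with a death domain can start cell death, whereas others recruit TRAF adaptor proteins and switch on NF-kB and stress kinases. In inflamed tissue the family carries signals of macrophages and lymphocytes, while a few members, such as ectodysplasin and the TWEAK receptor, act in epithelia, fibroblasts and tissue repair. According to its title, the study asked about testicular immune balance and NF-kB, to which many of these receptors lead.

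The libraries held 24594371 counts for the knockdown and 17846426 for the control. With 1 library per group there was no replicate and no test between groups, and all values compare 2 libraries, not the conditions. Dmrt1 itself had 39 counts in the knockdown and 852 in the control library, a log2 ratio of -4.45 with a 95% counting interval of -4.97 to -4.01. The labelled tissue was checked against markers of its own cells. All 6 Leydig cell markers and all 9 Sertoli cell markers were present in the control library and lower in the knockdown library, with summed levels of 238 CPM (a gene's counts relative to the library total) in the knockdown and 22469.9 CPM in the control for Leydig cells, and of 195 CPM and 1969 CPM in the same order for Sertoli cells. Germ cell markers were scarce in both, with 8 markers summing to 3.90 CPM in the knockdown and 109.8 CPM in the control library. In the control library too, this sum lay far below that of the Leydig cell markers. How far that library, labelled wild type, resembles intact adult testis was not tested, and every ratio is taken against it.

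More superfamily members were higher than lower in the knockdown library, among ligands and among receptors. Of the 45 members, 42 reached 1 CPM in at least 1 library. Genes were called higher or lower if their ratio's 95% counting interval lay entirely beyond 2-fold. By this rule 27 of the 42 members were higher (64.3%), against 17.8% of all 15104 genes tested, 3 were lower (7.14%), against 20.8% of all genes, and 12 were neither. Among ligands 11 of 14 were higher and 1 lower, and among receptors 16 of 28 were higher and 2 lower. With library totals in place of TMM scaling 22 members were higher and 4 lower, against 12.7% and 27.8% of all genes, and 13 of the 28 receptors were higher and 3 lower. With the point estimate alone past 2-fold, 30 members were higher and 4 lower, against 21.4% and 25.0% of all genes. At 1.5-fold or more with an interval that excludes 1, 32 were higher and 5 lower, against 29.7% and 32.5%. The members' median log2 ratio of knockdown over control was 1.93, and that of all genes tested was -0.02. Single ratios ran from -4.73 for Eda to 5.58 for Tnfsf15. In this filter, 36 members reached 1 CPM in both libraries, Cd40lg and Tnfsf9 only in the knockdown library, and Eda, Edar, Tnfrsf19 and Ngfr only in the control library. Members that pass through 1 library alone had to differ, so the calls of Cd40lg, Tnfsf9 and Eda support nothing. Of the 36 members at 1 CPM in both libraries, 25 were higher and 2 lower, against 17.5% and 13.6% of the 12734 genes that met the same condition.

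**Figure D1:**
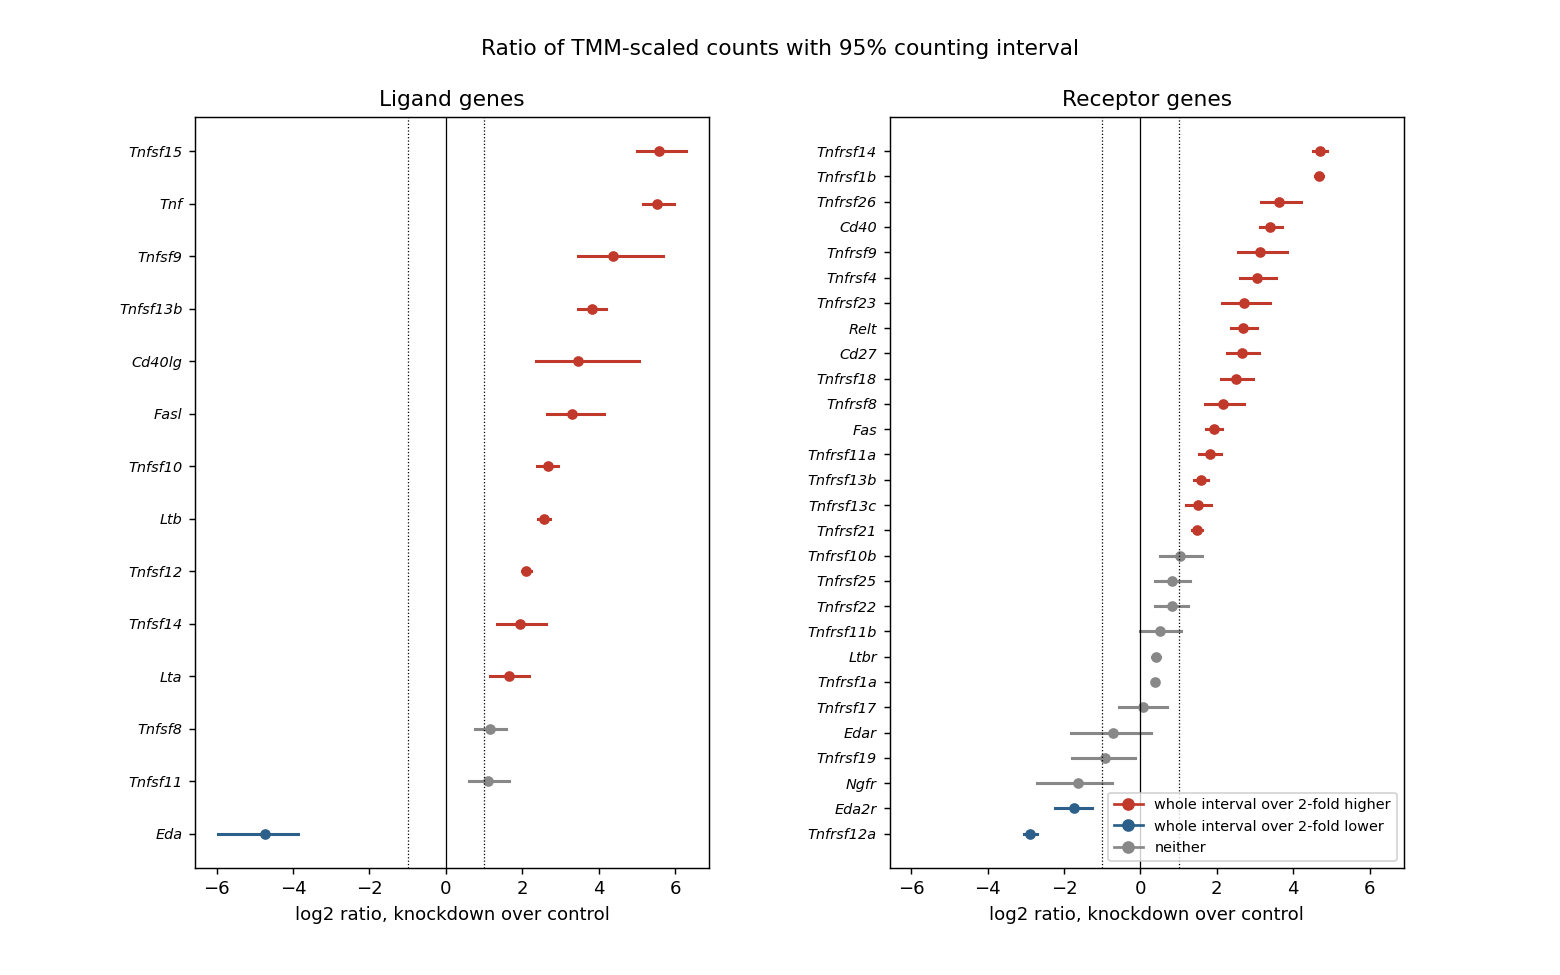
Log2 ratio of scaled counts, knockdown over control (x axis), for the 14 ligand genes and 28 receptor genes with at least 1 CPM in 1 library; points are ratios, bars are 95% counting intervals, dotted lines mark 2-fold. Among ligands 11 lay wholly above 2-fold and Eda wholly below, and among receptors 16 lay above and Tnfrsf12a and Eda2r below.

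Summed over the 17 ligand genes, the level was 444 FPKM (a read count scaled by transcript length and library size) in the knockdown and 71.5 FPKM in the control library, and over the 28 receptor genes 776 FPKM in the knockdown and 373 FPKM in the control library. The order of the receptors by level differed between the libraries. In the knockdown library Tnfrsf1b led with 276 FPKM, or 35.6% of all receptor FPKM, ahead of Tnfrsf1a at 101 FPKM and Tnfrsf14 at 85.1 FPKM. In the control library Tnfrsf12a led with 190.1 FPKM, or 51.0% of the receptor sum, ahead of Tnfrsf1a at 74.8 FPKM and Ltbr at 31.9 FPKM. The ligand order differed as well. Ltb, Tnfsf12 and Tnf led in the knockdown library with 152, 142 and 83.0 FPKM, and Tnfsf12, Ltb and Eda in the control library with 32.8, 25.2 and 2.46 FPKM. Eda was the lowest of the 17 ligands in the knockdown library.

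**Figure D2:**
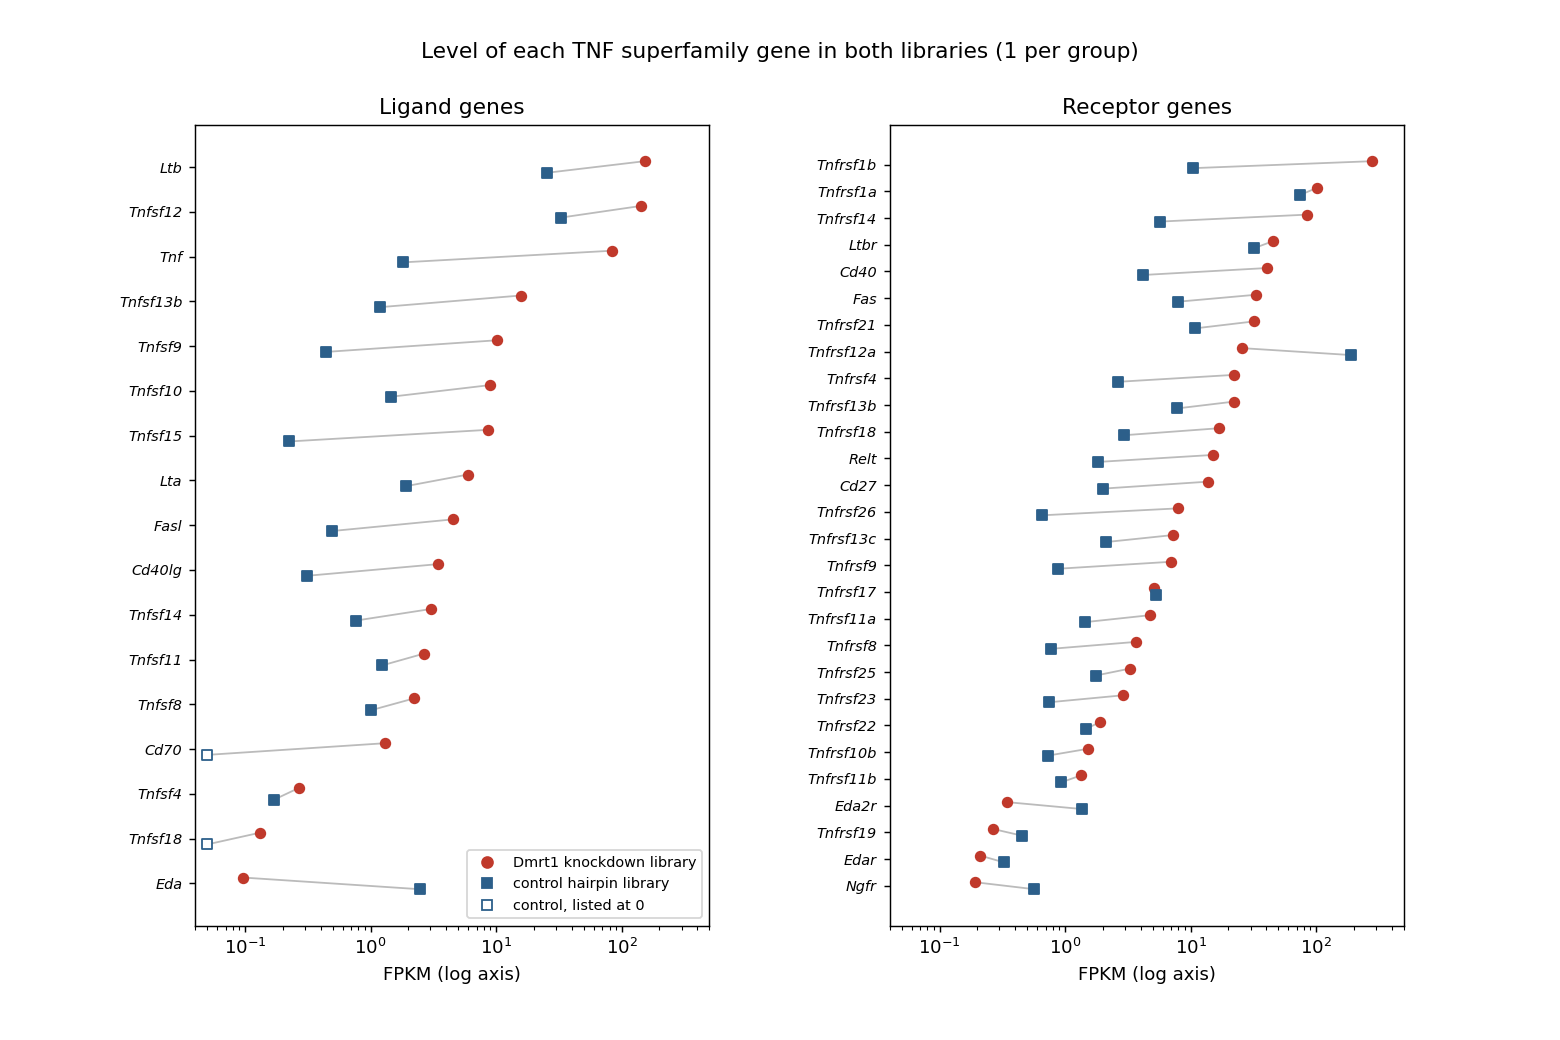
FPKM of each of the 17 ligand genes (left) and 28 receptor genes (right) on a log axis, with circles for the knockdown library and squares for the control library; open squares at the left edge stand for Cd70 and Tnfsf18, which are listed at 0 in the control library. Tnfrsf12a, Eda and Eda2r are the called genes whose circle lies left of the square.

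The TNF and lymphotoxin ligands were all higher in the knockdown library, against 17.8% of all genes. Tnf, the main inflammatory cytokine of the family, had 2511 counts in the knockdown and 53 in the control library, 46.3-fold higher on the scaled counts (log2 5.53, interval 5.15 to 5.97). Its ratio ranked 212 from the highest among 15104 genes. Ltb, which joins lymphotoxin alpha in the membrane-bound ligand of Ltbr, had 2341 counts in the knockdown and 389 in the control library and its log2 ratio was 2.57 (2.41 to 2.73), or 5.93-fold. Smaller ratios were found for the remaining ligands of the group. Lta, the secreted lymphotoxin, had 137 counts in the knockdown and 43 in the control library (log2 1.64, interval 1.15 to 2.18), and Tnfsf14, also called LIGHT, had 106 and 27 counts in the same order, 3.82-fold higher (1.33 to 2.62). Scaled by library totals, which lowered the log2 ratios of all genes by a median of 0.44, Lta and Tnfsf14 were no longer past the rule.

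The receptors for these ligands differed: Tnfrsf1b and Tnfrsf14 were higher, whereas Tnfrsf1a and Ltbr were neither. Tnfrsf1b, the TNF receptor found mainly on leukocytes and endothelium, had 20370 counts in the knockdown and 784 in the control library and was 25.6-fold higher (log2 4.68, interval 4.58 to 4.78). Tnfrsf1a, the death-domain TNF receptor of most cell types, had 3747 and 2829 counts in the knockdown and control libraries, a log2 ratio of 0.39 (0.31 to 0.46) that did not clear 2-fold and was -0.06 with library totals. Within a library the ratio of both genes does not depend on the scaling: Tnfrsf1b stood at 2.73 times the FPKM of Tnfrsf1a in the knockdown library and at 0.140 times in the control library. The receptors that bind LIGHT parted likewise. Tnfrsf14, the herpesvirus entry mediator, had 7064 counts in the knockdown and 267 in the control library, 26.0-fold higher by counts (4.53 to 4.89 on the log2 scale) but 14.8-fold by the deposited FPKM. Ltbr, the lymphotoxin beta receptor of stromal and myeloid cells, had 1761 and 1307 counts in the same order and a log2 ratio of 0.41 (0.31 to 0.51), which was -0.03 with library totals.

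Markers of myeloid cells were higher in the same library. Of the macrophage and monocyte list, 11 genes were measured: 8 higher, 1 neither and 2 lower, namely Cd163 and Mrc1, both of resident-type macrophages, with a median log2 ratio of 2.42 and a summed level of 3537 CPM in the knockdown and 754 CPM in the control library. All 10 neutrophil markers were higher, with a median of 6.74 once genes at 0 were set at their bound, and summed to 956 CPM in the knockdown and 11.5 CPM in the control library, where S100a8, Retnlg and Mmp8 were at 0 counts. In bulk RNA, more cells of a type and more RNA per cell cannot be told apart, and the part of these cells in the TNF values was not tested.

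Because the series title names both Dmrt1 and NF-kB, the 250 bases before the transcription start of members were searched for the kB consensus, to which NF-kB binds, and for ACANTGT, the core of the DMRT1 motif, on both strands. RefSeq sequences (GRCm38.p6) were at hand for 35 of the 45 members, with 39 start sites. The kB consensus was found before 4 of the 39 starts (10.3%), against 7.25% of 32851 starts of all genes, and a stricter form with fewer allowed letters before 3 (7.69%), against 1.41%. The member genes with either form were Ltb, Tnfrsf8, Tnfrsf9 and Tnfrsf25. ACANTGT was found before 1 start (2.56%), that of Eda2r, against 6.47% of all starts. A match describes letters and is no evidence of binding. The windows printed are those of the higher genes Ltb, Tnfrsf8 and Tnfrsf9 and the lower gene Eda2r, which hold a motif, and of Tnf, the best-known member, which holds neither motif in this window. Capitals mark the kB consensus, which in Tnfrsf8 and Tnfrsf9 is matched in 2 overlapping positions, or, in Eda2r, ACANTGT. Tnfrsf9 has 2 listed starts, and the window of the other, upstream one, which is not printed, holds neither motif. The RefSeq starts do not always match the GENCODE gene positions used elsewhere. The Ltb window runs past the GENCODE start of Ltb, 35194439. The printed Tnfrsf9 window lies inside the GENCODE gene, which starts at 150914562.
Ltb, chr17:35194257-35194506, plus strand: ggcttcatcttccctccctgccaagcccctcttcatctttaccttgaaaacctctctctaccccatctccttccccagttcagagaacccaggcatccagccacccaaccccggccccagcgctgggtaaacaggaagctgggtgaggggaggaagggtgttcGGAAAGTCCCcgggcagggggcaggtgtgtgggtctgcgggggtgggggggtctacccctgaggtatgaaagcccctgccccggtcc
Tnfrsf8, chr4:145315165-145315414, minus strand: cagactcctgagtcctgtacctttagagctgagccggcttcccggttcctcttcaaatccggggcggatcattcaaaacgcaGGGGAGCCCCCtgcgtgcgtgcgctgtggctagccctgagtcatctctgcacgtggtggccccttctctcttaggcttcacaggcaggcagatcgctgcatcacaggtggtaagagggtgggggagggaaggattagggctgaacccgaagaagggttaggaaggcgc
Tnfrsf9, chr4:150927749-150927998, plus strand: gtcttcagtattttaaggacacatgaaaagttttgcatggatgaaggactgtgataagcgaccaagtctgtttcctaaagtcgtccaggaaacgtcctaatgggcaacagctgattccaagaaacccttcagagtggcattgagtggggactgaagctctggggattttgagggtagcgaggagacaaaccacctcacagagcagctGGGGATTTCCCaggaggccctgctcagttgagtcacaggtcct
Eda2r, chrX:97377210-97377459, minus strand: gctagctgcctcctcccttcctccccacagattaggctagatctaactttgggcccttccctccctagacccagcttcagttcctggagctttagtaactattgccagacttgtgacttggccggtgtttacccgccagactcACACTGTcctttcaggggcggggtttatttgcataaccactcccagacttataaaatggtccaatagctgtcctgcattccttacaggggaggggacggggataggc
Tnf, chr17:35202008-35202257, minus strand: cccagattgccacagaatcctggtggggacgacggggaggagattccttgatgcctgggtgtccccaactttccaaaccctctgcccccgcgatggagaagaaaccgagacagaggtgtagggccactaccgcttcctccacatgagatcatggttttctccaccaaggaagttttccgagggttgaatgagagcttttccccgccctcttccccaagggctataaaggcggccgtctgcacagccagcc

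Of 7 ligands of lymphocyte costimulation, 3 were higher, 1 was neither and 3 were below the filter, where 17.8% of all genes tested were higher. Of the 3 called, only Tnfsf15 reached 1 CPM in both libraries. Tnfsf15, also called TL1A and the ligand of Tnfrsf25, had 1089 counts in the knockdown and 22 in the control library, 47.8-fold higher (log2 5.58, upper interval bound 6.29). Its interval overlapped that of Tnf, whose ratio was above that of Tnfsf15 with a prior count of 5 (5.42 for Tnf and 5.32 for Tnfsf15) and by FPKM. Tnfsf9, which binds Tnfrsf9 on activated T cells, had 179 and 8 counts in the same order, 20.8-fold higher (3.45 to 5.70), and Cd40lg, the CD40 ligand of helper T cells, had 72 and 6 counts, 11.0-fold higher (2.37 to 5.06). The wide intervals reflect the low control counts. Tnfsf8, the CD30 ligand, had 173 counts in the knockdown and 76 in the control library, and its interval of 0.77 to 1.58 did not clear 2-fold. The other members of the group were below the filter in both libraries: Cd70 had 13 counts in the knockdown and 0 in the control library, Tnfsf4 had 8 and 5 in the same order, and Tnfsf18 had 4 and 0. Set against a floor of 3 counts in the control library, Cd70 stood at 4.27-fold, and the lower bound of its counting interval was 1.59 on the log2 scale.

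Their receptors on lymphocytes and antigen-presenting cells were also higher, with 6 of 7 past the rule, against 17.8% of all genes. Cd40, through which helper T cells activate B cells, macrophages and dendritic cells, had 1112 counts in the knockdown and 103 in the control library and was 10.6-fold higher (log2 3.41, upper interval bound 3.72). Tnfrsf9, also called CD137, had 218 and 24 counts in the same order, 8.79-fold higher (2.55 to 3.84), and Tnfrsf4, the OX40 receptor of activated T cells, had 363 and 43 counts, 8.24-fold higher (2.60 to 3.55). The intervals of these 3 receptors overlapped. Cd27 had 371 and 57 counts in the knockdown and control libraries, 6.37-fold higher (2.28 to 3.11), and Tnfrsf18, also called GITR, had 325 and 56 counts, 5.68-fold higher (2.10 to 2.95). Tnfrsf8, the CD30 receptor of activated lymphocytes, had 189 and 41 counts, 4.50-fold higher (1.69 to 2.71). The exception was Tnfrsf25, the death-domain receptor of TL1A, with 116 counts in the knockdown and 64 in the control library and an interval of 0.39 to 1.30, in contrast to the high ratio of its ligand.

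Exons of Cd27, Tnfrsf18 and Tnfsf9 overlap a miRNA gene or an antisense transcript, so part of their counts is uncertain. T and NK cell markers were higher in the same library. Of 9 measured, 8 were higher and 1 was neither, with a median log2 ratio of 3.24 and a summed level of 462 CPM in the knockdown and 73.6 CPM in the control library, none at 0. Dendritic cell markers, 3 higher and 2 neither, had a median of 1.55 and sums of 95.3 CPM in the knockdown and 43.7 CPM in the control library. Their part in the receptor values was not tested.

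In the group that keeps B cells alive, the 1 ligand found, Tnfsf13b, and the receptors differed in the size of their ratios. No locus had the symbol Tnfsf13, so that ligand was not measured. Tnfsf13b, which encodes the B cell survival factor BAFF and is made largely by myeloid and stromal cells, had 976 counts in the knockdown and 68 in the control library, 14.1-fold higher (log2 3.81, interval 3.47 to 4.20). Tnfrsf13b, the receptor TACI, had 976 and 322 counts in the same order, 2.99-fold higher (1.40 to 1.77), and Tnfrsf13c, the BAFF receptor, had 303 and 104 counts, 2.86-fold higher (1.20 to 1.86). Both receptors missed the rule with library totals, at 1.14 and 1.08. Tnfrsf17, the plasma cell receptor BCMA, had 47 counts in the knockdown and 44 in the control library, a log2 ratio of 0.07 (-0.55 to 0.70) that was -0.36 with library totals. The 8 B and plasma cell markers, 2 higher and 6 neither, had a median of 1.13, sums of 2511 CPM in the knockdown and 1835 CPM in the control library, and none at 0. Their part in these values was not tested.

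Among death ligands and death receptors, both ligands and 2 of 3 receptors were higher, against 17.8% of all genes. Fasl, the killing ligand of cytotoxic T and NK cells, had 185 counts in the knockdown and 18 in the control library, 9.89-fold higher (log2 3.31, interval 2.64 to 4.13). Its receptor Fas had 917 and 239 counts in the same order, 3.78-fold higher (1.71 to 2.13). By level the receptor exceeded the ligand in both libraries, at 33.3 FPKM for Fas and 4.52 FPKM for Fasl in the knockdown library and at 7.99 FPKM for Fas and 0.496 FPKM for Fasl in the control library. Tnfsf10, which encodes TRAIL, had 837 counts in the knockdown and 130 in the control library, 6.33-fold higher (2.40 to 2.94), while Tnfrsf10b, the TRAIL death receptor of mouse, had 90 and 43 counts and an interval of 0.51 to 1.60 that did not clear 2-fold. Tnfrsf21, a death-domain receptor also called DR6, had 2011 and 711 counts in the knockdown and control libraries, 2.79-fold higher (1.36 to 1.61), and was not past the rule with library totals, at 1.04.

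The decoy receptors, which bind ligand without passing on a death signal, differed among themselves. Tnfrsf23 had 175 counts in the knockdown and 26 in the control library, 6.53-fold higher by counts (log2 interval 2.13 to 3.39) and 3.85-fold by FPKM. Its neighbour Tnfrsf22 had 129 and 72 counts in the same order and an interval of 0.39 to 1.26. Tnfrsf11b, osteoprotegerin, the soluble decoy for Tnfsf11, had 76 and 52 counts and an interval of -0.00 to 1.06. Tnfrsf26, the third gene of the Tnfrsf22 and Tnfrsf23 cluster, had 436 counts in the knockdown and 34 in the control library, 12.5-fold higher (3.16 to 4.21). These 3 are similar in sequence and 2 of them overlap an antisense transcript, so reads of one gene can be counted for another.

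The 11 members grouped as tissue made a mixed group, which also held Tnfrsf11a of osteoclast precursors and dendritic cells. Of these 11, 4 were higher (Tnfsf12, Tnfrsf26, Relt and Tnfrsf11a), 3 were lower (Tnfrsf12a, Eda2r and Eda) and 4 were neither. Eda reached 1 CPM only in the control library. By the same rule 17.8% of all genes were higher and 20.8% lower, so with 11 members the lower calls are not read as a trait of the group. Tnfrsf12a, also called Fn14, the receptor of TWEAK that stromal and epithelial cells raise on injury and growth stimulation, had 321 counts in the knockdown and 2342 in the control library and was 7.39-fold lower (log2 -2.89, interval -3.06 to -2.72). Its ligand Tnfsf12 (TWEAK) went the other way, with 3425 and 784 counts in the same order, 4.31-fold higher (1.99 to 2.22). The levels of this pair crossed. In the knockdown library the ligand stood at 142 FPKM and the receptor at 25.8 FPKM, a ligand to receptor ratio of 5.49, and in the control library the ligand stood at 32.8 FPKM and the receptor at 190.1 FPKM, a ratio of 0.172. Exons of Tnfsf12 overlap those of a read-through gene with its neighbour, so part of its counts is uncertain.

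Ectodysplasin and its receptors stood at 2.46 FPKM or less in both libraries, the highest being Eda in the control library. Eda and Eda2r were lower in the knockdown library. Eda, the ligand that directs the development of skin appendages, had 9 counts in the knockdown and 249 in the control library, 26.6-fold lower (log2 -4.73, interval -5.96 to -3.86). Eda2r, which binds an isoform of ectodysplasin and lies on the X chromosome as Eda does, had 48 and 158 counts in the same order, 3.31-fold lower (-2.24 to -1.26). Edar, the receptor for the other isoform, had 14 and 23 counts, and its interval of -1.81 to 0.28 spanned 0. The neurotrophin receptor Ngfr had 13 counts in the knockdown and 41 in the control library with an interval of -2.70 to -0.75, and with library totals it was past the rule at -2.07. Tnfrsf19, also called TROY, had 21 and 40 counts and an interval of -1.79 to -0.15. None of Edar, Ngfr and Tnfrsf19 reached 1 CPM in the knockdown library. Markers of Leydig cells had a median log2 ratio of -7.70, those of Sertoli cells -3.14 and those of germ cells -4.05, and their part in these lower values was not tested.

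Relt and Tnfrsf11a, of the mixed tissue group, were also higher. Relt, whose ligand is not established, had 549 counts in the knockdown and 83 in the control library, 6.49-fold higher (log2 2.70, interval 2.37 to 3.06). Tnfrsf11a, the receptor RANK of osteoclast precursors and dendritic cells, had 475 and 132 counts in the same order, 3.54-fold higher (1.55 to 2.12), while its ligand Tnfsf11 (RANKL) had 101 and 46 counts and an interval of 0.60 to 1.65. Endothelial markers, of which 5 of 7 were higher, had a median of 2.04 and sums of 239.9 CPM in the knockdown and 92.1 CPM in the control library. Fibroblast markers, of which 5 of 6 were higher, had a median of 3.66 and sums of 8109.6 CPM and 1324.0 CPM in the same order. The part of either cell type in the receptor values was not tested.

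Ligands were set beside the receptors they are known to bind, as 24 pairs, of which 21 had both genes above the filter. In 8 pairs both genes were higher in the knockdown library, in 7 the ligand was higher and the receptor neither, and in 2 the receptor was higher and the ligand neither. Tnfsf12 with Tnfrsf12a was the 1 pair of the 21 with the ligand higher and the receptor lower, and Eda with Eda2r was the 1 pair with both lower. Pairs share genes, so these counts are not independent. Most ligands (11 of 14) and receptors (16 of 28) were higher by themselves, so pairs with both higher would be common without any link within pairs. Pair counts are therefore not read as a trait of pairing. Of the 17 pairs with both genes at 1 CPM in both libraries, which leaves out the pairs of Cd40lg, Tnfsf9 and Eda, both were higher in 6. The log2 ratios of Cd40lg and Cd40 were 3.46 and 3.41, but the interval of Cd40lg, 2.37 to 5.06, was too wide to call them alike. Tnfsf15 and Tnfrsf25 lay far apart, at 5.58 and 0.83. By level, Tnfsf15 exceeded Tnfrsf25 in the knockdown library, at 8.59 FPKM and 3.28 FPKM, whereas the ligand stood below the receptor in the control library, at 0.225 FPKM and 1.75 FPKM.

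**Figure D3:**
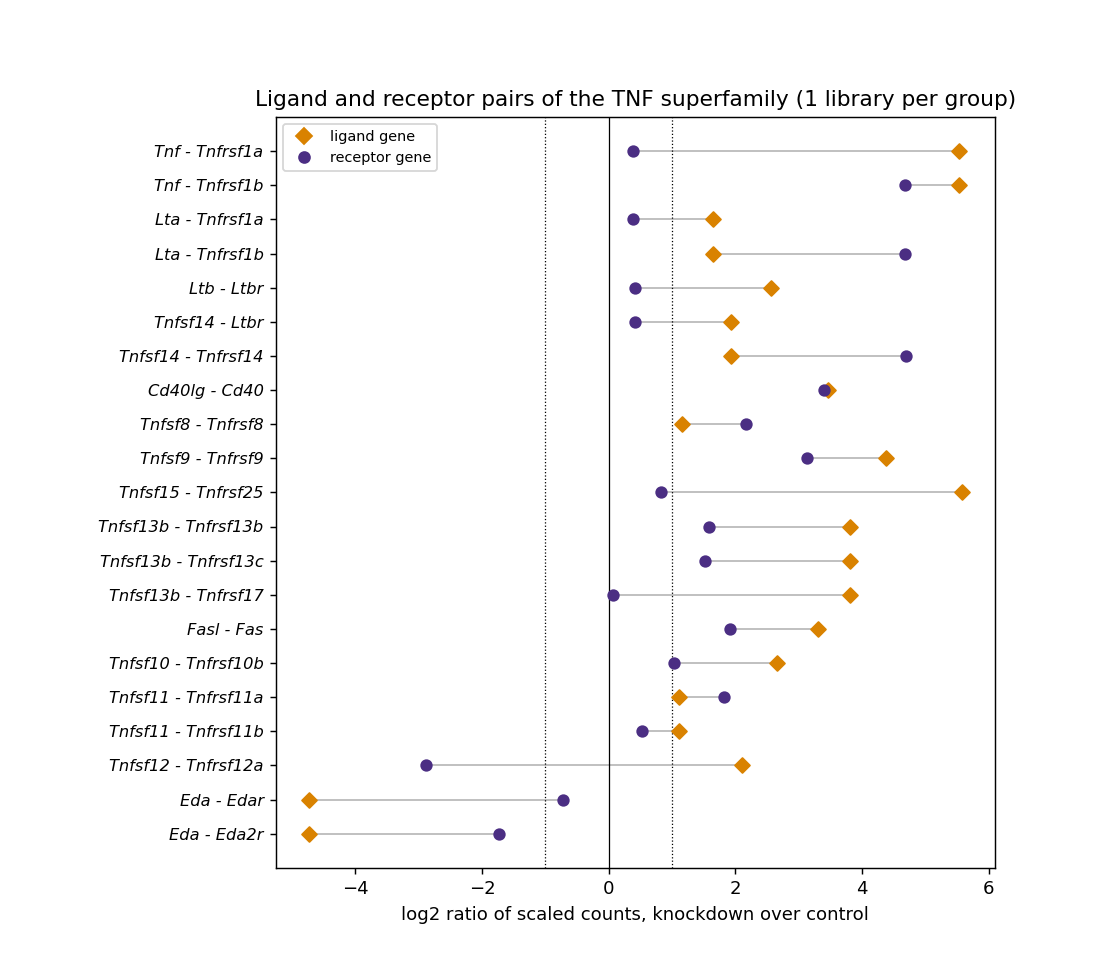
Log2 ratio of scaled counts, knockdown over control (x axis), of the ligand gene (diamonds) and the receptor gene (circles) in each of the 21 pairs with both genes above 1 CPM in 1 library; dotted lines mark 2-fold. The Tnfsf12 and Tnfrsf12a pair spans 2.11 to -2.89, and both Eda pairs lie below 0.

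Of the genes that carry the receptors' signal inside the cell, 30 of the 31 listed were measured. They comprise adaptors, ubiquitin ligases, kinases, death effectors, NF-kB subunits of the alternative pathway and the sheddase that releases TNF. Of the 30, 10 were higher (33.3%, against 17.8% of all genes) and none lower (against 20.8%), with a median log2 ratio of 0.69. With library totals 8 were higher and 1 lower (against 12.7% and 27.8% of all genes), the lower one being the kinase gene Chuk, named here after its value was seen. By the 1.5-fold rule 18 were higher and 2 lower (against 29.7% and 32.5%). Tnfaip3, which encodes the ubiquitin-editing inhibitor A20 and is itself an NF-kB target, had 3969 counts in the knockdown and 281 in the control library (log2 3.80). The adaptor genes Traf5 at 3.41, Traf1 at 3.08 and Traf3 at 1.71 followed, as did Adam17, the TNF sheddase, at 2.24. Relb at 2.01 and Nfkb2 at 1.87, the partners of the alternative NF-kB pathway, and Cflar at 1.77, the caspase-8 inhibitor, were higher as well. Fadd and Tradd, adaptors of death-domain receptors that were likewise chosen after their values were seen, were near 0. Fadd had 444 and 420 counts in the knockdown and control libraries, with an interval of -0.14 to 0.26, and Tradd had 472 and 404 counts, with an interval of 0.01 to 0.40.

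**Figure D4:**
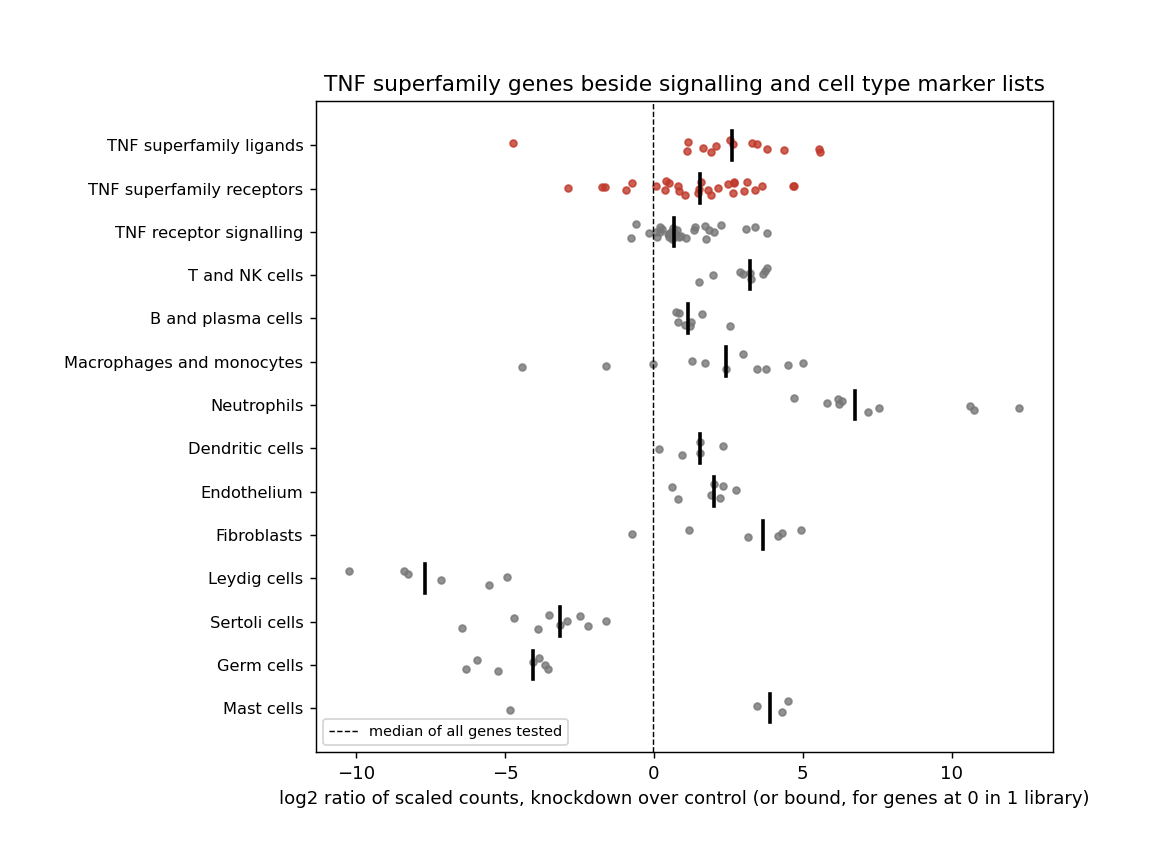
Log2 ratio of scaled counts, knockdown over control (x axis), of each measured gene of the superfamily, of the signalling list and of the cell type marker lists; each point is a gene, vertical bars are list medians and the dashed line is the median of all 15104 genes, -0.02. Ligands (median 2.61) and receptors (1.55) lie among the immune and stromal lists, and Leydig, Sertoli and germ cell markers lie below 0.

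Superfamily genes often lie side by side in the genome, and 20 of the 45 fall into 8 groups of neighbours within 100 kb of each other on GRCm38. On chromosome 17, Ltb, Tnf and Lta (35194439 to 35205351) were all higher, with log2 ratios of 1.64 to 5.53. Also on chromosome 17, Tnfsf9 and Tnfsf14 (57105325 to 57194177, with Cd70 between them) were higher. On chromosome 4, Tnfrsf1b and Tnfrsf8 (145213463 to 145315164) were both higher, as were Tnfrsf4 and Tnfrsf18 (156013843 to 156028895). Neighbours did not always share a call. On chromosome 4, Tnfsf15 was 47.8-fold higher and its neighbour Tnfsf8 did not clear 2-fold (63727084 to 63861347), and on chromosome 6, Cd27 was higher beside Ltbr and Tnfrsf1a, which were not (125232622 to 125362484). Of the lower genes, none has another member within 100 kb. Eda spans 99975606 to 100400762 and Eda2r 97333840 to 97377216 on chromosome X, and Tnfrsf12a spans 23675445 to 23677468 on chromosome 17.

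In the authors' deposited table, which compares both libraries with EBSeq, 21 members are called up, 2 down and 19 normal, and 3 have no value. Among all 15104 loci with a value it calls 10.5% up and 14.2% down. All 21 members that it calls up were higher here, and Eda and Tnfrsf12a, which it calls down, were lower here. It calls normal 6 members that were higher here, namely Lta, Tnfsf14, Tnfrsf13b, Tnfrsf13c, Tnfrsf21 and Tnfrsf11a, and Eda2r, which was lower here. The authors' deposited table gives log2 fold changes of 5.48 for Tnf, 4.66 for Tnfrsf1b and -2.89 for Tnfrsf12a. Those calls hold no spread between animals either.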

How the data were processed

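Total RNA of 2 testis libraries was made with TRIzol and a stranded mRNA kit, per the labels' protocols. Build mm10 and the tools DESeq, edgeR 3.12.1, Subread 1.5.1, featureCounts, STAR 2.5.3a and Trimmomatic 0.36 are listed, without roles, per the submitters' processing notes. Neither these nor the labels state the counted strand or the gene annotation. The deposited table holds, per the file headers, the authors' raw read counts and FPKM values for each library and an EBSeq comparison by the authors (FDR 0.01, fold 2) with log2 fold changes.

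Counts of all 18722 loci were scaled with TMM factors, 0.858 for the knockdown and 1.17 for the control library (edgeR 4.0.16, R 4.3.3). Log2 ratios used a prior count of 0.5, with Clopper-Pearson 95% intervals on the knockdown share of the pair. No molecular identifiers are named in the labels, so intervals and floors (3 counts, 0.122 CPM in the knockdown and 0.168 CPM in the control library) cover counting error only. Genes with at least 1 CPM in 1 library were read, and called where the whole interval lay beyond 2-fold. FPKM served for levels between genes. Every member could be named, as could the 8 signalling genes farthest from 0 by the interval bound nearest 0. The members, role groups, pairs and lists were chosen with earlier results of these data known. On simulated counts for 15104 genes with Poisson error only, 92% of 100 genes changed 4-fold were called in the right direction, against 3% of 100 changed 2-fold and 0 of 14904 unchanged genes. Alternatives were other scalings (DESeq2 1.42.0 size factors, library totals), a larger prior count (5), other filters and call rules, and FPKM. GENCODE M21 (GRCm38) gave the gene positions. Python 3.11.15, numpy 2.4.6, scipy 1.17.1, pandas 2.3.3 and matplotlib 3.10.9 were used.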

Additional observations from a re-analysis of the deposited data

How the results depend on the processing

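No paired analysis was possible because only 1 library stands in either group, which also prevented leaving out a library. With library totals the median log2 ratio of members was 1.49 (all genes -0.46), 22 members were higher and 4 lower (12.7% and 27.8% of all genes), 1 signalling gene was lower, and Tnfrsf1a, Ltbr and Tnfrsf17, none of them called, changed sign. By the rule of at least 1.5-fold with an interval that excludes 1, which calls 29.7% of all genes higher and 32.5% lower, 32 members were higher and 5 lower, 4 of these receptors, and 18 signalling genes were higher and 2 lower. A filter at 5 CPM raised the median of members to 2.54. Without the 7 members that share exons or sequence with another gene, chosen after seeing the data, the median was 1.64, with 21 higher and 3 lower. The strict kB motif was found before 7.69% of member starts. DESeq2 size factors left the calls of all 42 members as they were. A prior count of 5 moves the point estimate only and not the interval, so it could not change a call. With a pseudocount of 0.1, FPKM gave log2 ratios of 4.74 for Tnfsf15, -3.70 for Eda, 3.87 for Tnfrsf14 and 1.81 for Tnfrsf23, more than 1.5 times off the count ratios. Without the pseudocount the FPKM folds of Tnfsf15 and Eda were 1.25 and 1.05 times off, so most of their gap comes from it, while those of Tnfrsf14 and Tnfrsf23 stayed more than 1.5 times off, for which the cause was not tested. FPKM divided by its total over all loci gave, as in TPM, 422 in the knockdown and 96.9 in the control library for ligands, and 738 and 506 in the same order for receptors. At this depth the intervals of Edar, Tnfrsf17 and Tnfrsf11b still held 0.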
